A study of Mus musculus with 3 samples.

Results

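A set of 10 neighbouring genes of mouse chromosome 11, from Srebf1 to Shmt1, was read on 3 oligonucleotide arrays of OP9 cells, a stromal line. There was 1 array and 1 colour (Cy5) for each of 3 sublines. In the order of the gene table they are Srebf1, Tom1l2, Atpaf2, Drg2, Alkbh5, Llgl1, Flii, Top3a, Smcr8 and Shmt1. Each has 1 probe on the array, so the 10 genes are 10 of 23473 probes, found by gene symbol (Flii under its older name Fliih). Of these, 9 are among the 15581 probes bright enough to be compared, and the probe of Smcr8 is not. The genes were picked with their values on these arrays in view. All values of the 10 genes are therefore a description, and no test, error or p-value is given.

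The OP9-DL cells expressed Delta-like 1, a ligand of Notch receptors, and green fluorescent protein (GFP). The OP9-GFP cells expressed GFP alone, and the OP9 cells neither. OP9 was derived from skull bone (calvaria) of newborn mice of the genotype B6C3Fe-a/a-Csf1op/Csf1op, so the 3 lines share the Csf1op mutation, and such cells serve as feeders in blood cell cultures. The cells were untreated and grown in the same medium, and the sources used here do not say whether a line was 1 clone, what drove the added genes or how many cultures were pooled. With 1 array per line, an effect of Delta-like 1 and any other difference among these cultures cannot be told apart.

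All readings are probe intensities as scaled by the authors (median 20 on every array), and probes whose geometric mean over the arrays was below 6.13 were not compared. As a check of the labels, Dll1 read 333.3 in OP9-DL, 20.5 in OP9-GFP and 14 in OP9. Of 5 stromal markers, Vim, Col1a2, Col1a1 and Pdgfrb had at least 221.1 on every array, and Thy1 was below the limit on each. Of 5 markers of leukocytes and mast cells, 2 were high in OP9-DL alone: Cd48 (114.4, against 3.0 in OP9-GFP and 2.1 in OP9) and Tpsab1 (818.9, against 9.0 and 20.6). The other markers were near the bottom of the scale, with Ptprc at 2.8 or less, Cpa3 at 8.1 or less, and Kit with a value, 1.6, in OP9 alone. Their part in the values below was not tested.

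The 10 genes lie close together, with other protein-coding genes between some of them, and do not share a pathway. Srebf1 encodes SREBP-1, a transcription factor that is released from the membrane by cleavage and turns on fatty acid synthesis. Shmt1 encodes the cytosolic serine hydroxymethyltransferase, which charges folate with a one-carbon unit, and Atpaf2 an assembly factor of the mitochondrial ATP synthase. Alkbh5 removes the methyl mark m6A from RNA, Drg2 is a GTP-binding protein, and Top3a is the topoisomerase that works with the Bloom helicase to resolve joined DNA strands. Llgl1 belongs to the Scribble group of cell polarity proteins, Flii to the gelsolin family of actin regulators, and Tom1l2 to a family of adaptors of endosomal sorting. Smcr8 is a partner of C9orf72 in a complex of autophagy and lysosomes. The human counterpart of the stretch lies within the region commonly deleted in Smith-Magenis syndrome, from which Smcr8 has its name.

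Promoter sequences are shown for 2 genes that passed 2-fold in a comparison (Shmt1 and Srebf1) and for starts that face a neighbour with other values (Atpaf2 beside Gid4, Flii beside Mief2). They are RefSeq sequences of the assembly GRCm38.p6, 250 bases before to 50 bases after a start, and 8 of the 10 genes have at least 1 entry, with 3 for Srebf1. The motifs searched on both strands were the GC box GGGCGG, the E-box CACGTG, the CCAAT box itself, the CRE core TGACGT, the ETS site CCGGAAG, the NRF1 core GCATGC, the YY1 core GATGGC, the SREBP core CACCCCA and the TATA box as TATAAA, and capitals mark every match. Shmt1 (chr11:60811216-60811515, minus strand), Srebf1 at 1 of its 3 starts (chr11:60210422-60210721, minus strand), Atpaf2 (chr11:60416985-60417284, minus strand), Flii (chr11:60727214-60727513, minus strand) and its neighbour Mief2 (chr11:60728148-60728447, plus strand) read as follows.
Shmt1: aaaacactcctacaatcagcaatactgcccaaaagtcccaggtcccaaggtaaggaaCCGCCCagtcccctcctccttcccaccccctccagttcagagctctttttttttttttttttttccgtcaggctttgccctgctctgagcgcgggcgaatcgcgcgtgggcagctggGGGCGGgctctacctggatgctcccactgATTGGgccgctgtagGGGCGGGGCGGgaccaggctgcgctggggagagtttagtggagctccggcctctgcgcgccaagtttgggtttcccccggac
Srebf1: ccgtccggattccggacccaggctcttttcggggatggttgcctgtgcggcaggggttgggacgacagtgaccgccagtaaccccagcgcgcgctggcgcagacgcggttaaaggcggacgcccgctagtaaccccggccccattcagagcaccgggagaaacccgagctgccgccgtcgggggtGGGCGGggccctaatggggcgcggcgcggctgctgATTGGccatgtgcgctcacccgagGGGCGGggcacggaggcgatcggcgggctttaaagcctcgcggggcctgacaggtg
Atpaf2: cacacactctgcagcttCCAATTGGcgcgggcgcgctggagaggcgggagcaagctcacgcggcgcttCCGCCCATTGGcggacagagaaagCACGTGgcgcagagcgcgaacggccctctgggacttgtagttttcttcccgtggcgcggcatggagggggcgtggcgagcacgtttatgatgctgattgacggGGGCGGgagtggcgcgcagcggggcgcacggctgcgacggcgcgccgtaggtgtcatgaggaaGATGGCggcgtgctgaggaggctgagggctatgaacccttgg
Flii: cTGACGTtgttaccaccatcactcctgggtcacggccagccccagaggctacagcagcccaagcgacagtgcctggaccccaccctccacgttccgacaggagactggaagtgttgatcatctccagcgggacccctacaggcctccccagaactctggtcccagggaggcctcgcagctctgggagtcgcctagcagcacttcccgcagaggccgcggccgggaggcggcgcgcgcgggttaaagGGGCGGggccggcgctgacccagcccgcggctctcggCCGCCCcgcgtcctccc
Mief2: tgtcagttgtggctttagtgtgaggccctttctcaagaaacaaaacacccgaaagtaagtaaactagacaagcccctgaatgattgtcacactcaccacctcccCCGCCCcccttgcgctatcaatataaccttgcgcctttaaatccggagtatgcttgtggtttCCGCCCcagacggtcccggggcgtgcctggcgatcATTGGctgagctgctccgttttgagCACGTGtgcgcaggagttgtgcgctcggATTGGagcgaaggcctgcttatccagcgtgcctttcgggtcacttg

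A GC box was found in 8 of the 10 promoter entries of these genes, against 59.2% of the 11590 entries of compared genes. CCAAT was found in 6 of 10, against 37.3% of the entries of compared genes. In Shmt1, 2 GC boxes share a base, and in Atpaf2 a pair of CCAAT matches on opposite strands overlap. The E-box was in 2 of the 10 entries (9.52% of compared genes), the NRF1 core in 2 (9.78%), and the ETS site (16.0%), the CRE core (10.8%) and the YY1 core (14.7%) in 1 each. These letters of the SREBP core (8.28%) and TATAAA (8.42%) were in none of the 10 windows. The GC content of the 10 entries ran from 53.7% to 70.7% with a median of 62.7%, against a median of 60.0% over the entries of compared genes. A match is a string of letters, not a shown binding site.

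**Figure D1:**
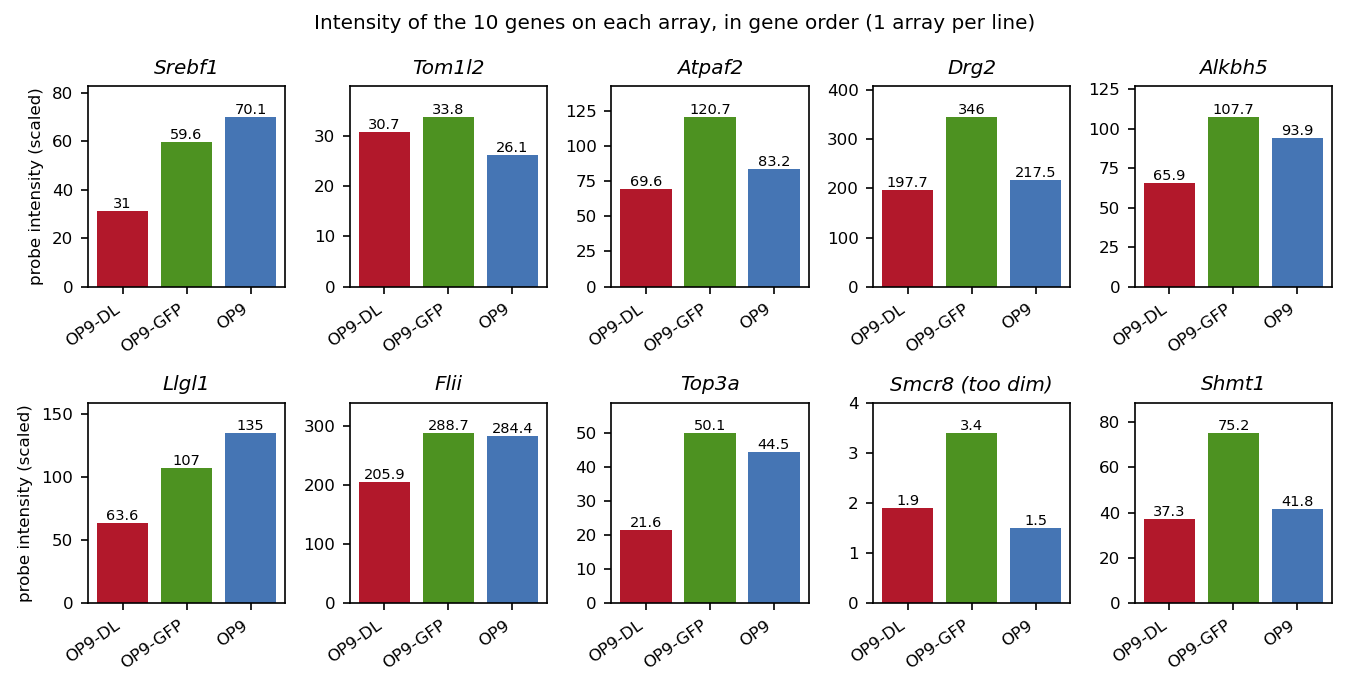
Probe intensity (bars, from 0, in the authors' scaled units, a different range in each panel) of the 10 genes on the OP9-DL, OP9-GFP and OP9 arrays, 1 array per line. The OP9-DL bar is shorter than the OP9-GFP bar in every panel, and the OP9-GFP bar is the tallest for 8 of the 10 genes. The probe of Smcr8 was too dim to be compared.

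All 9 compared genes had a lower intensity in OP9-DL than in OP9-GFP, where 51.3% of all compared probes did. Their differences on the log2 scale, OP9-DL minus OP9-GFP, ran from -1.21 to -0.14 with a median of -0.79, beside a median of -0.01 over all compared probes. Only Top3a and Shmt1 were lower by 2-fold or more, 2 of 9, while 2.72% of all compared probes were, and none was higher by that much (2.31% of all compared probes). Since the genes were chosen with these differences known, nothing is read from the counts. In RNA of a whole culture, fewer cells of a kind and less RNA per cell cannot be told apart. Across the 3 arrays, OP9-DL held the lowest value for 8 of the 10 genes and OP9 for 2. The highest value was held by OP9-GFP for 8 and by OP9 for 2. These counts include the dim probe of Smcr8 and were not made over all probes, so nothing is read from them either.

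The genes of metabolism followed 2 different orders of the arrays. Srebf1 had an intensity of 31.0 in OP9-DL, 59.6 in OP9-GFP and 70.1 in OP9. It was thus 1.92-fold lower in OP9-DL than in OP9-GFP and 2.26-fold lower than in OP9, while the log2 difference of OP9-GFP against OP9 was -0.23. The table of promoters lists 3 starts for Srebf1, and the sources used here do not say which of its transcripts the probe reads.

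Shmt1 had 37.3 in OP9-DL, 75.2 in OP9-GFP and 41.8 in OP9. Here OP9-GFP stood apart, with OP9-DL 2.02-fold below it, a log2 difference of -1.01 that was just short of 2-fold under lowess scaling (-0.98) and with a constant of 2 (-0.97). On the deposited scale OP9-DL and OP9 were close together, at a log2 difference of -0.16. Atpaf2 followed the same order with smaller steps to OP9-GFP, at 69.6, 120.7 and 83.2 on the OP9-DL, OP9-GFP and OP9 arrays. The Atpaf2 difference of OP9-DL was -0.79 against OP9-GFP and -0.26 against OP9.

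Among the genes that act on nucleic acids, Top3a had the largest difference of the 10. Its intensity was 21.6 in OP9-DL, 50.1 in OP9-GFP and 44.5 in OP9, so that OP9-DL lay below OP9-GFP by 2.32-fold and below OP9 by 2.06-fold. The RNA demethylase gene Alkbh5 had 65.9 in OP9-DL, 107.7 in OP9-GFP and 93.9 in OP9, a log2 difference of -0.71 against OP9-GFP and -0.51 against OP9. In both genes the OP9-GFP and OP9 arrays were close, at 0.17 for Top3a and 0.20 for Alkbh5. Drg2 instead had 197.7, 346.0 and 217.5 on the OP9-DL, OP9-GFP and OP9 arrays, with OP9-GFP standing apart as for Shmt1, at a log2 difference of -0.81 of OP9-DL against OP9-GFP and -0.14 against OP9.

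The genes of polarity and of the actin skeleton were lowest in OP9-DL. Llgl1 had an intensity of 63.6 in OP9-DL, 107.0 in OP9-GFP and 135.0 in OP9. As for Srebf1 the OP9 array was the highest, and OP9-DL lay below OP9-GFP by 1.68-fold and below OP9 by 2.12-fold. Flii, the next gene along, had 205.9, 288.7 and 284.4 on the OP9-DL, OP9-GFP and OP9 arrays, which puts OP9-DL 1.40-fold below OP9-GFP, with the other two arrays 0.02 apart on the log2 scale. Llgl1 and Flii overlap at their ends in the gene table, and the sources used here do not place the probes, so a probe that reads both cannot be told apart from one that reads its own gene.

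The genes of endosomes and autophagy had the smallest difference and the dimmest probe of the 10. Tom1l2 had 30.7 in OP9-DL, 33.8 in OP9-GFP and 26.1 in OP9. Its log2 difference of OP9-DL against OP9-GFP, -0.14, was the smallest of the 10, and OP9 was the lowest array. Smcr8 had 1.9, 3.4 and 1.5 on the OP9-DL, OP9-GFP and OP9 arrays, close to the lowest readings of the scale. Its log2 difference of -0.84 against OP9-GFP therefore gives no firm fold, and it is left out of the counts of compared genes.

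Against the parental line the directions of the same genes were mixed. Between OP9-GFP and OP9, 7 of 9 compared genes were higher in OP9-GFP (51.7% of all compared probes were) and 2, Srebf1 and Llgl1, were lower, with a median log2 difference of 0.20. None of the 9 reached 2-fold, where 4.86% of all compared probes were higher and 6.75% were lower by that much. Between OP9-DL and OP9, 8 of 9 were lower in OP9-DL (48.3% of all compared probes were), with a median of -0.47, and Tom1l2 was higher at 0.23. Srebf1, Llgl1 and Top3a were lower by 2-fold or more, 3 of 9, beside 6.91% of all compared probes, and none was higher by that much (4.31%). Under quantile scaling Llgl1 (-0.98) and Top3a (-0.9986) were just short of 2-fold, as was Top3a with a constant of 2 (-0.98). The medians over all compared probes were 0.02 in both comparisons. The comparisons share arrays, so these values are not independent of those against OP9-GFP.

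**Figure D2:**
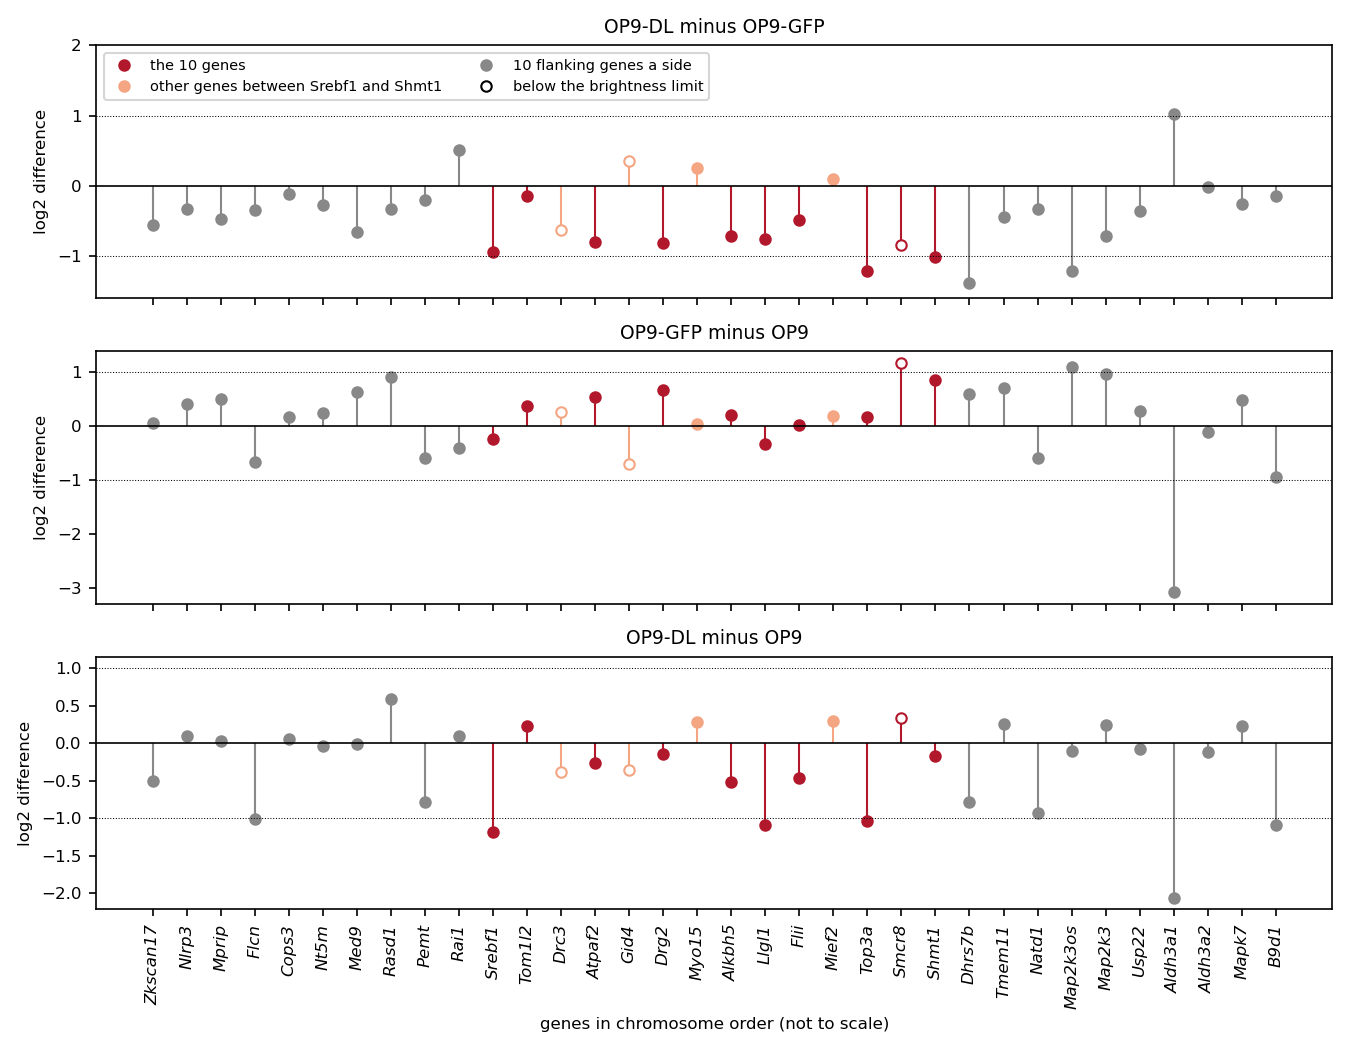
Log2 difference (vertical axis; upper panel OP9-DL minus OP9-GFP, middle OP9-GFP minus OP9, lower OP9-DL minus OP9) of each gene in chromosome order, from 10 compared genes before Srebf1 to 10 after Shmt1; open circles are below the brightness limit and dotted lines mark 2-fold. In the upper panel the 10 genes lie below 0, and so do 18 of the 20 flanking genes (69.9% of the compared genes of chromosome 11 outside the stretch do).

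Not every gene between Srebf1 and Shmt1 was lower in OP9-DL. The gene table lists 4 other protein-coding genes there, each with 1 probe. Mief2, a mitochondrial fission factor that lies between Flii and Top3a, had 38.8 in OP9-DL, 36.2 in OP9-GFP and 31.7 in OP9. Myo15, the unconventional myosin of hair cells, had 11.3, 9.5 and 9.3 on the OP9-DL, OP9-GFP and OP9 arrays. Both were thus slightly higher in OP9-DL than in OP9-GFP, at 0.10 for Mief2 and 0.25 for Myo15 on the log2 scale.

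Drc3, a gene of cilia and flagella, and Gid4, a subunit of a ubiquitin ligase, were below the brightness limit. Drc3 had 4.0, 6.2 and 5.2 on the OP9-DL, OP9-GFP and OP9 arrays, and Gid4 had 4.2, 3.3 and 5.4. The promoter windows of Atpaf2 and Gid4, which point away from each other, share 210 bases, and those of Tom1l2 and Drc3 share 26. Those of Flii and Mief2, also divergent and printed above, share none. Flii was lower in OP9-DL than in OP9-GFP and Mief2 was not.

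The lower values did not end at Srebf1 or Shmt1. Of all 279 compared genes before Srebf1, 81.7% were below 0 in OP9-DL against OP9-GFP, with a median log2 difference of -0.34. Among the 10 nearest to Srebf1, 9 were below 0, with a median of -0.33. The exception was the direct neighbour Rai1, the gene most tied to Smith-Magenis syndrome, with 93.3 in OP9-DL, 65.5 in OP9-GFP and 87.1 in OP9. Before it lie Pemt, which makes phosphatidylcholine (39.6, 45.3 and 68.3 on the OP9-DL, OP9-GFP and OP9 arrays), and Rasd1, a Ras-like protein (9.5, 11.9 and 6.3).

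Of all 674 compared genes after Shmt1, 65.0% were below 0 in OP9-DL against OP9-GFP, with a median of -0.13. Among the 10 nearest to Shmt1, 9 were below 0, with a median of -0.35. The exception was Aldh3a1, with 119.2 in OP9-DL, 58.6 in OP9-GFP and 496.9 in OP9, a log2 difference of 1.02 in OP9-DL against OP9-GFP. The nearest, Dhrs7b, a reductase of peroxisomal ether lipid synthesis, had 296.6 in OP9-DL, 772.8 in OP9-GFP and 510.6 in OP9. Its log2 difference of -1.38 against OP9-GFP was larger than that of any of the 10 genes. It is followed by Tmem11 of the mitochondrial inner membrane (446.1, 608.8 and 374.1 on the OP9-DL, OP9-GFP and OP9 arrays) and Natd1 (15.2, 19.1 and 28.9). Over both flanks, 18 of 20 genes were below 0, with a median of -0.33, beside 69.9% and -0.18 over chromosome 11 outside the stretch. Against OP9 the flanks had a median of -0.06 for OP9-DL and 0.26 for OP9-GFP.

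**Figure D3:**
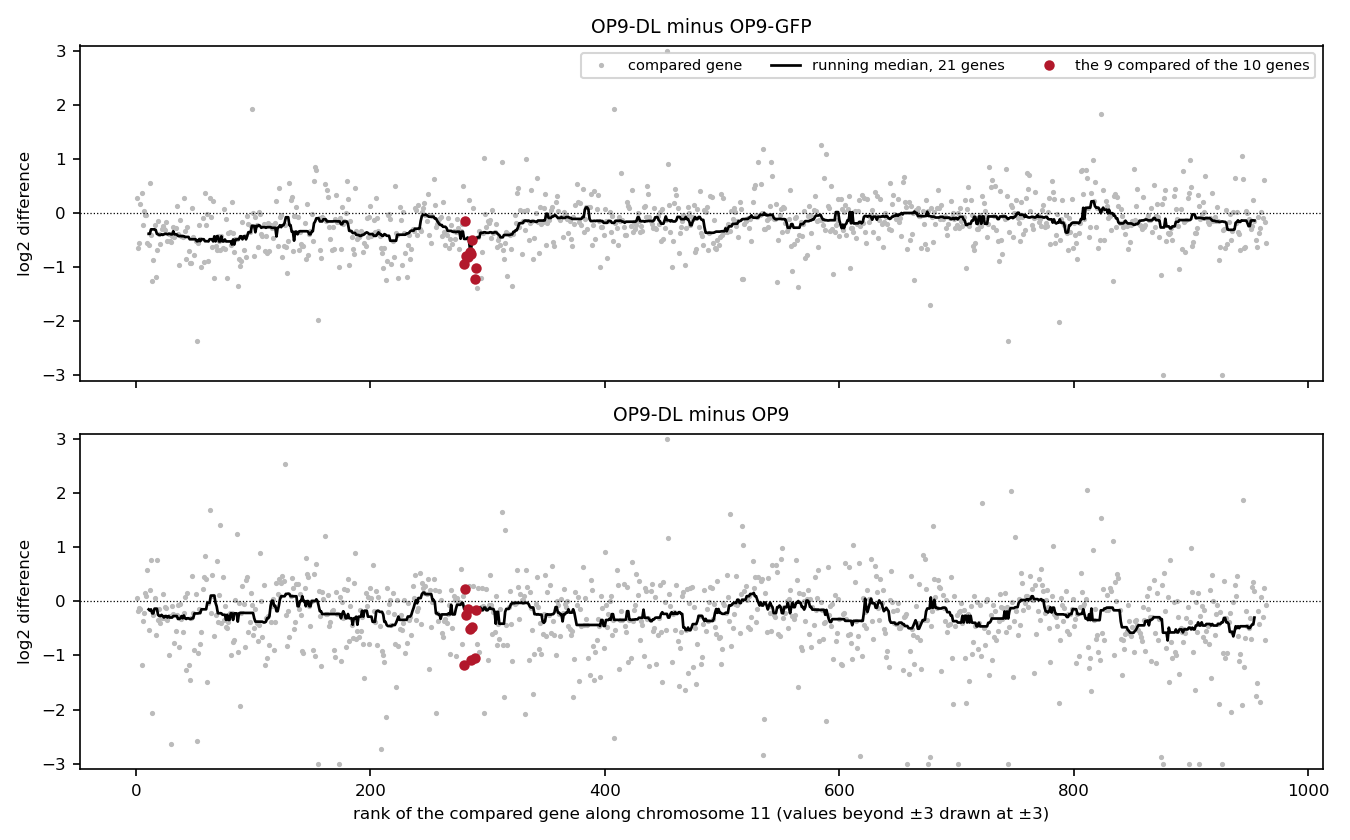
Log2 difference (vertical axis; upper panel OP9-DL minus OP9-GFP, lower OP9-DL minus OP9) of the 964 compared genes of chromosome 11 by rank along the chromosome, with a running median over 21 genes and the 9 compared genes of the stretch in red. In the upper panel the running median is below 0 for 94.6% of its windows and is lowest, -0.66, at 2 neighbouring centres, Alkbh5 and Llgl1.

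Most genes of chromosome 11 read lower in OP9-DL than in OP9-GFP. Of 953 compared genes of chromosome 11 outside the stretch, 69.9% were below 0 in OP9-DL against OP9-GFP, with a median of -0.18, beside 53.0% and -0.03 over all 11359 compared genes. The part before Srebf1 was lower than the part after Shmt1: its 279 genes had a median of -0.34, with 81.7% below 0, and the 674 genes after Shmt1 had -0.13, with 65.0% below 0. Against OP9 the OP9-DL medians were -0.22 and -0.26 for these parts, and those of OP9-GFP were 0.07 and -0.15. The median of chromosome 11 outside the stretch had the same sign as that of the 9 compared genes in both comparisons of OP9-DL and the opposite sign in OP9-GFP against OP9 (-0.08, beside 0.20). The part of the chromosome-wide shift in the values of the 10 genes was not tested.

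Measured from the median of the rest of chromosome 11, the 9 compared genes had a median of -0.62 in OP9-DL against OP9-GFP, with 8 below and Tom1l2 above. The same median was -0.23 in OP9-DL against OP9, with 6 below and 3 above, and 0.28 in OP9-GFP against OP9, with 7 above and 2 below. The 2 lowest 21-gene windows of chromosome 11 in OP9-DL against OP9-GFP hold the 9 genes and were found with them inside.

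**Figure D4:**
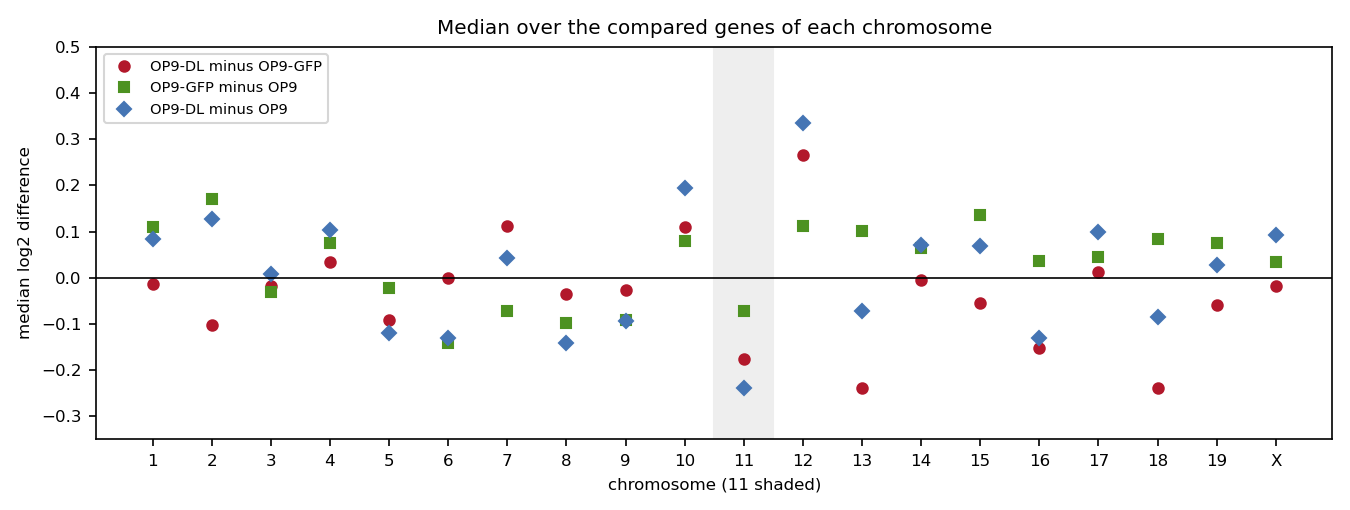
Median log2 difference (vertical axis) over the compared genes of each of 20 chromosomes for the 3 comparisons, with chromosome 11 shaded. Chromosome 11 has the lowest median of all in OP9-DL minus OP9, -0.24, while 2 chromosomes lie below it in OP9-DL minus OP9-GFP.

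Medians of other chromosomes also left 0. In OP9-DL against OP9-GFP, chromosome 11 had a median of -0.18, with 2 of 20 chromosomes below it, and the others ran from -0.24 to 0.27. In OP9-DL against OP9 it had -0.24, below all others, which ran from -0.14 to 0.33. In OP9-GFP against OP9 it had -0.07, within the range of the others from -0.14 to 0.17.

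The 10 genes work with partners encoded mostly on other chromosomes, and 11 lists of such partners were compared between OP9-DL and OP9-GFP. Of 96 compared partner genes 61 were below 0, 4 were lower and 1 was higher by 2-fold or more, with a median log2 difference of -0.11, beside 51.3% below 0, 2.72% lower, 2.31% higher and a median of -0.01 over all compared probes. The medians of the lists ran from -0.23 to 0.28. In 4 of the 11 lists the lowest gene lies on chromosome 11 too (Tom1l1, Drg1, Top2a and Flcn), and 8 of the 9 partner genes on chromosome 11 were below 0 (69.9% of the chromosome outside the stretch were), against 53 of 87 on other chromosomes.

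**Figure D5:**
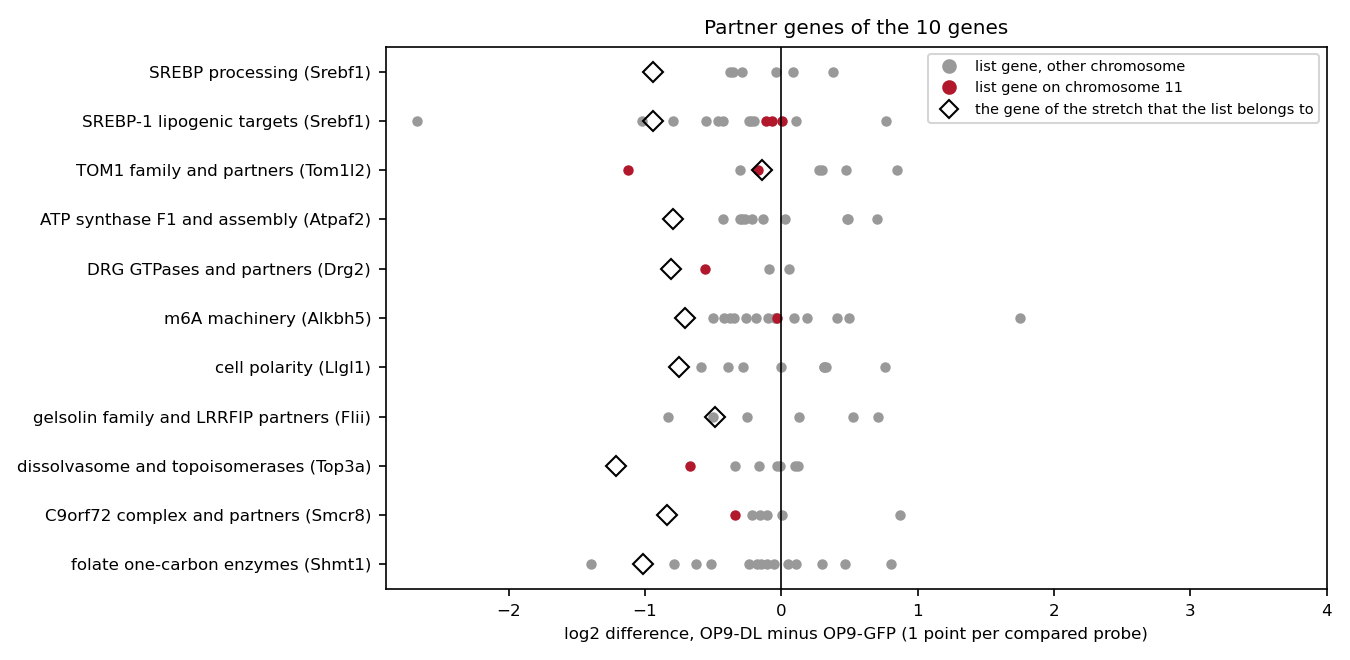
Log2 difference of OP9-DL minus OP9-GFP (horizontal axis) of the compared probes of 11 partner lists, with partner genes on chromosome 11 in red and the gene of the stretch each list belongs to as an open diamond. Each diamond lies left of most partners in its list, from 4 of 7 for Tom1l2 and 4 of 6 for Flii upwards. It lies left of all compared partners for Atpaf2, Drg2, Alkbh5, Llgl1, Top3a and Smcr8, but the Smcr8 probe is below the brightness limit. So does the Srebf1 diamond in the list of SREBP processing, but not in that of lipogenic targets. The genes of the stretch were picked with this difference in view, so nothing is read from where the diamonds lie.

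Partners of Srebf1 were mostly lower in OP9-DL than in OP9-GFP, few of them by 2-fold or more. Of 14 compared lipogenic targets of SREBP-1, 11 were below 0 in OP9-DL against OP9-GFP, and 2 were lower by 2-fold or more, with a median of -0.23, where 53.0% of all compared genes were below 0 and 2.72% of all compared probes were 2-fold lower. Those 2 were Scd2, a stearoyl-CoA desaturase (145.1 in OP9-DL, 295.2 in OP9-GFP and 535.6 in OP9), and Mid1ip1, an activator of acetyl-CoA carboxylase (3.6, 22.9 and 9.7). The OP9-DL reading of Mid1ip1 lies below 6.13, the brightness limit that was set on the geometric mean over the arrays. The order of Srebf1, with OP9 highest and OP9-DL lowest, was found in 5 of the 14 targets (Acaca, Acly, Acss2, Scd1 and Scd2) and not in the other 9. How many of all compared genes have this order was not counted, so nothing is read from these counts. Among the 5 was Scd1, a relative of Scd2 (35.5, 61.6 and 170.1), which was singled out after its values were seen. Fasn, the fatty acid synthase, was among the 9 (179.3, 178.3 and 246.6, also singled out afterwards), and Lpin1, a phosphatidate phosphatase, was the highest of the list (6.3, 3.7 and 14.4). In OP9-DL against OP9-GFP none of 6 genes that process SREBP reached 2-fold, with a median of -0.16. They ran from Insig1 (21.7, 28.2 and 31.7) to Insig2 (144.5, 110.8 and 354.8), which both hold SREBP back in the membrane. Against OP9 the medians of the targets and the processing genes were -0.37 and -0.56 for OP9-DL. For OP9-GFP against OP9 both were -0.28, and over all compared probes the medians of both comparisons were 0.02.

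Among 14 compared enzymes and carriers of folate metabolism, the partners of Shmt1, 9 were below 0 (53.0% of all compared genes were) and 1 was lower by 2-fold or more (2.72% of all compared probes). That was Tyms, the thymidylate synthase, which uses the one-carbon unit that Shmt1 supplies and had 546.5 in OP9-DL, 1437.8 in OP9-GFP and 594.4 in OP9. Tyms and Shmt1 thus had the same order of arrays, with OP9-GFP highest and OP9-DL and OP9 close together. No other compared gene of the list had that order. The rest were highest in OP9-DL or OP9, or were highest in OP9-GFP with OP9 lowest. Outside the list, Atpaf2, Drg2, Alkbh5, Flii and Top3a also had OP9-GFP highest and OP9-DL lowest, while Srebf1, Llgl1 and Tom1l2 did not. How many of all compared genes have this order was not counted, so nothing is read from its presence in both Tyms and Shmt1. A link between Tyms and Shmt1 was not tested. Aldh1l2, a mitochondrial folate dehydrogenase, was the highest of the list (45.1, 25.8 and 12.6). The median of the list was -0.13 in OP9-DL against OP9-GFP but 0.68 in OP9-GFP against OP9 and 0.53 in OP9-DL against OP9.

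In OP9-DL against OP9-GFP, 2.72% of all compared probes were lower and 2.31% higher by 2-fold or more. Nothing is therefore read from the counts of the short lists that follow. In that comparison none of the 10 compared genes of the ATP synthase and its assembly, which Atpaf2 serves, reached 2-fold (median -0.17). The ends of their range were Fmc1, an assembly factor (198.0 in OP9-DL, 265.9 in OP9-GFP and 280.9 in OP9), and Atp5b, the catalytic beta subunit (6976.9, 4282.5 and 4110.1). Of the 3 genes related to Drg2 none reached 2-fold (median -0.09), and its paralog Drg1 was the lowest (616.0, 905.8 and 669.9) and Rwdd1, which codes for a binding partner of Drg2, the highest (961.7, 926.4 and 813.4). Of 15 compared genes that write, read or erase m6A, 1 was higher and none lower by 2-fold, with a median of -0.05 that turned above 0 under quantile and lowess scaling. The higher one was the reader Igf2bp3 (282.5, 83.9 and 166.3), and the lowest was Rbm15b of the writer complex (46.4, 65.8 and 73.9).

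Beside the 2.72% of all compared probes that were 2-fold lower and the 2.31% that were 2-fold higher, these lists are short too. Nothing is read from their counts. In OP9-DL against OP9-GFP none of 7 compared topoisomerases and partners of Top3a reached 2-fold. Their median was -0.03 and turned above 0 under quantile and lowess scaling, from Top2a (756.1 in OP9-DL, 1203.6 in OP9-GFP and 962.6 in OP9) to Rmi1, a subunit of the same complex as Top3a (9.9, 9.1 and 14.2). In the same comparison none of 8 compared polarity genes reached 2-fold (median 0.16), from Pard6g (10, 15 and 7.2) to Mpp5 (57.9, 34.2 and 55.2). None of 6 compared relatives and partners of Flii did either (median -0.06), from Svil, supervillin (34.6, 61.5 and 53.1), to Gsn, gelsolin (5167.6, 3167.5 and 3618.7).

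In OP9-DL against OP9-GFP, 1 of 7 compared partners of Tom1l2 (median 0.28) was lower by 2-fold or more. Of all compared probes 2.72% were, and 2.31% were higher by that much, so nothing is read from the counts of such short lists. The lower partner was the paralog Tom1l1 (5.6 in OP9-DL, 12.2 in OP9-GFP and 11.7 in OP9). The other paralog, Tom1, was the highest by its compared probe (29.5, 16.4 and 20.3). In the same comparison none of 6 compared partners of Smcr8 reached 2-fold (median -0.13). They ran from Flcn, folliculin, which also lies on chromosome 11 (112.6, 142.7 and 226.9), to C9orf72 itself (72.5, 39.6 and 53.6). Flcn is also 1 of the flanking genes before Srebf1, so the same probe is counted in both places.

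Some genes on other chromosomes lay close to the median pair of differences of the 9 compared genes, which few of the 9 themselves did. The 9 compared genes had median log2 differences of -0.47 for OP9-DL against OP9 and 0.20 for OP9-GFP against OP9, and 42 of 11348 compared genes outside the stretch lay within a Euclidean distance of 0.1 of that pair. Of the 9 genes only Alkbh5 lay that close, and the other 8 were 0.18 to 0.83 away. The nearest outside the stretch were Atr, the DNA damage checkpoint kinase (64.2 in OP9-DL, 102.6 in OP9-GFP and 88.9 in OP9), Tmem60 (233.4, 375.1 and 324.6) and Tatdn2 (160.7, 258.3 and 223.1). They lie on chromosomes 9, 5 and 6. The likeness rests on 3 arrays.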

How the data were processed

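RNA of each line was purified, amplified as amino allyl RNA, coupled to Cy5 and put on 1 array, per the labels' protocols. The authors deposited linear probe intensity, scaled to a median of 20 on each array, as the values show; the sources used here do not give how the arrays were scanned, corrected for background and filtered (some probes are blank). Gene names came from the platform's table, updated through a RefSeq gene table (GRCm38.p6), which also gave the gene order. Log2 was taken with no constant. Probes were compared where all 3 arrays had a value and the mean log2 intensity reached the 25th percentile; a gene with several probes took their mean. With 1 array per line there is no test, and the number of arrays limits the precision.

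The genes, the partner lists and the rules were chosen with earlier results of these data known. Named genes were the 10 genes, every other protein-coding gene of the stretch, the 3 nearest compared genes on either side, the highest and lowest gene of each partner list, the 3 genes nearest to the median pair, Dll1 and the cell markers. Partner genes past 2-fold were also named where few. So were the SREBP-1 targets in the order of Srebf1, Fasn and the flanking gene Aldh3a1, after their values were seen. Alternatives were quantile and lowess scaling (span 0.3), the limit on dim probes, a constant of 2, the brightest probe, thresholds of 1.5-fold and 3-fold, and 20 flanking genes a side. The counting was tested on simulated data. Python 3.11.15, numpy 2.4.6, pandas 2.3.3 and statsmodels 0.14.6 were used.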

Additional observations from a re-analysis of the deposited data

How the results depend on the processing

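The median of the 9 compared genes was taken under alternatives of scaling, constant, brightest probe and a limit at the 50th percentile. It stayed between -0.79 and -0.75 in OP9-DL against OP9-GFP, between -0.47 and -0.39 in OP9-DL against OP9 and between 0.19 and 0.25 in OP9-GFP against OP9. Without the limit on dim probes, which adds Smcr8, it was -0.80, -0.36 and 0.29 in these comparisons. No compared gene turned its sign under any of these except Flii in OP9-GFP against OP9. Counts of the genes past 2-fold moved. In OP9-DL against OP9-GFP the count was 1 under lowess scaling and 1 with a constant of 2, in place of 2 (Shmt1 was lost, at -0.98 and -0.97), and 7 at 1.5-fold and 0 at 3-fold. In OP9-GFP against OP9 it was 1 without the limit on dim probes (Smcr8) and 2 at 1.5-fold, in place of 0. In OP9-DL against OP9 it was 1 under quantile scaling (without Llgl1 and Top3a), 2 with a constant of 2 (without Top3a) and 0 at 3-fold, in place of 3. The genes lost to scaling or a constant lay within 0.1 of the 2-fold limit. Over all probes, 2519 passed 1.5-fold and 275 passed 3-fold between OP9-DL and OP9-GFP, 4574 and 557 between OP9-GFP and OP9, and 4493 and 656 between OP9-DL and OP9. In OP9-DL against OP9-GFP, 1393 passed 2-fold without the limit on dim probes and 457 with a limit at the 50th percentile, where fewer probes were compared. Alternatives within 0.2 on the log2 scale are not listed. No paired analysis was possible because each line has 1 array.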
